A study of Rattus norvegicus with 39 samples.

Results

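The comparison described here is that of D1 and D2 neurons of the nucleus accumbens (NAc) in proestrus females given saline. It rests on 10 of the 39 immunoprecipitated (IP) RNA-seq libraries of the series, chosen by their labels: 5 from D1-Cre rats (libraries 1, 9, 17, 25 and 33) and 5 from D2-Cre rats (libraries 5, 13, 21, 29 and 37), 1 library per rat. The D1-Cre animals were adult female Long-Evans rats heterozygous for a Drd1a-iCre transgene, and the D2-Cre animals carried a Drd2-iCre transgene in the same way. All 10 rats had received the Cre-dependent RiboTag vector AAV9-DIO-Rpl22-3xHA-Ires-EYFP in the NAc, so that neurons with Cre made an HA-tagged ribosomal protein. All had 6 saline injections (0 mg/kg ketamine) timed to proestrus, which followed a first test session with an earlier saline injection. NAc punches (2 mm, from 200 µm sections) come from brains collected 4 days after the last injection (4 to 5 days in the study's discussion). By then the rats had been back in the test context for 30 min. Ribosomes were pulled down with an HA antibody, and the RNA bound to them was sequenced. The other 29 libraries come from other rats, in which the same D2 to D1 difference was measured. They are diestrus saline (5 D1-Cre and 5 D2-Cre rats), proestrus ketamine (5 and 4 rats, 10 mg/kg) and diestrus ketamine (5 and 5 rats, 10 mg/kg). They also enter tests of a change with cycle stage or treatment, and a single model of all 39 libraries. Per the study, ketamine rats were included only if their activity had risen over the treatment.

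Almost all NAc neurons are GABAergic medium spiny neurons (MSNs) of one of a pair of kinds. D1-MSNs carry the Gs-coupled dopamine D1 receptor, and D2-MSNs carry the Gi-coupled dopamine D2 receptor together with the Gs-coupled adenosine receptor of type 2A, so dopamine acts in opposite directions on cAMP in these cells. A small remainder consists of interneurons, among them those that make somatostatin and nitric oxide. A RiboTag library reports the RNA on tagged ribosomes, plus whatever untagged RNA comes down with the beads. It is a bulk sample, in which fewer cells of a type and less RNA per cell cannot be told apart. The transgenes mark every cell that makes the Cre, not MSNs alone.

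The values are expected counts summed per gene. Totals in the 10 libraries ran from 17320637 to 24784447 counts, and of 23978 genes listed, 13283 passed a filter on low counts and were tested. In D1 library 33 the 200 genes of highest count held 32.4% of the counts, against 25.0% to 26.0% in the other 9 libraries. Levels are given as CPM, the counts as a share of the library total, scaled by edgeR's TMM factors. Fold changes come from edgeR's quasi-likelihood fit with 2 surrogate variables, are written as log2 of D2 over D1 with their standard error (SE), and DE (differentially expressed) denotes a gene whose adjusted p was below 0.1. Positive values denote a D2 bias. A fitted fold change is corrected for the surrogate variables, so it can differ from the ratio of the group means printed beside it. Genes are listed by Ensembl identifier, and 1966 could be paired with a symbol through the identifiers and symbols in shortened copies of the study's supplementary tables, so the lack of a symbol here says nothing of the full tables. Of these, 1509 were tested.

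The identity of the libraries was checked first on Adora2a, which encodes the adenosine receptor of type 2A and is the sole defining D2-MSN gene with a symbol here. Its level was at 157, 204, 180, 193 and 155 CPM in D1 libraries 1, 9, 17, 25 and 33, against 1013, 838, 793, 1048 and 769 CPM in D2 libraries 5, 13, 21, 29 and 37. The groups were thus far apart, while no D1 library was free of Adora2a reads. The group means were 178 ± 21.6 CPM in D1 and 892 ± 129 CPM in D2 (SD, n = 5 each). Mean log2 CPM differed by 2.32 (2-sided exact permutation test, p = 0.00794, the smallest that 5 against 5 allow), and in edgeR's fit Adora2a was 4.69-fold higher in D2 (log2 fold change 2.23, SE 0.0875, adjusted p = 4.29e-08). No library went against its Cre line on this gene. None of 9 D1-MSN genes listed for the check, Drd1, Pdyn and Tac1 among them, could be paired, and they are not analysed here by name.

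Of the 13283 genes tested, 718 (5.41%) passed edgeR's quasi-likelihood test. A D1 bias was found for 346 genes (2.6%) and a D2 bias for 372 (2.8%). Without regard to any model, 400 genes (3.01%) had all 5 D1 libraries above all 5 D2 libraries, and 451 genes (3.4%) had all D2 libraries above all D1 libraries. Among the DE genes, 421 were separated in this way, 211 of the D1-biased and 210 of the D2-biased genes. Separation and a DE call were thus not the same thing, and 430 genes that were not called also had groups that did not overlap.

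**Figure D1:**
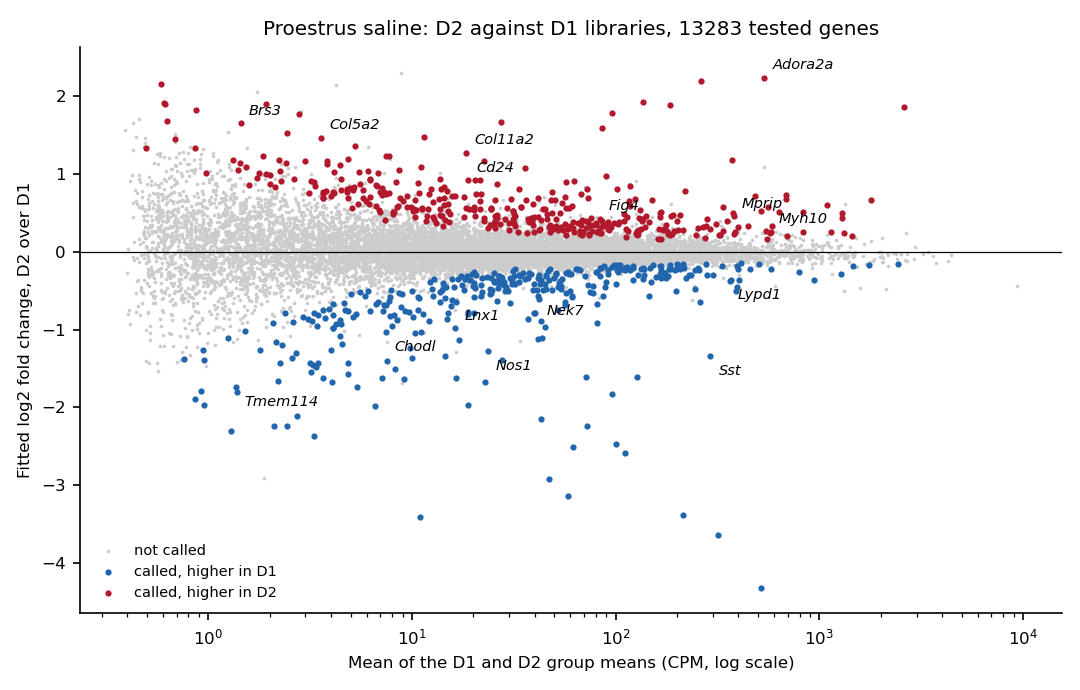
Fitted log2 fold change of D2 over D1 (vertical axis) against the mean of both group means in CPM (horizontal axis, log scale) for the 13283 tested genes. Blue and red points are DE genes with a D1 or D2 bias, grey points were not called, and the DE genes reach farther below 0 (D1 side) than above it (D2 side), up to a size of 4.31.

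Most differences were small. The median absolute log2 fold change was 0.10 over all tested genes and 0.50 over the DE genes, which ranged from 0.15 to 4.31. Only 119 DE genes differed by more than 1 on the log2 scale, and 89 differed by less than 0.25. The largest differences were on the D1 side: 16 D1-biased and 3 D2-biased genes differed by more than 2. The median size was close in both directions, 0.49 for D1-biased and 0.52 for D2-biased genes.

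The called differences were larger in genes of low level, where the SE was larger, so a gene needed a larger difference to be called. Genes were split by mean level into 4 sets of nearly equal number. In the lowest set (0.391 to 6.18 CPM), 129 of 3321 genes were DE, with a median absolute log2 fold change of 1.02, and the median SE over the whole set was 0.28. In the highest set (70.7 to 9383 CPM), 233 of 3321 were DE with a median of 0.31, and the median SE was 0.06.

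Over all tested genes, the 10 libraries separated by Cre line. The first principal component of log2 CPM held 30.6% of the variance, and on it the scores ran from -28.7 to -8.15 for D1 and from 5.62 to 37.3 for D2. The second component, with 18% of the variance, did not follow the Cre line. Its extremes were both D1 libraries, 17 at -34.9 and 1 at 22.5. The root mean square log2 difference between 2 libraries averaged 0.45 within the D1 group and 0.43 within the D2 group, against 0.52 between a D1 and a D2 library. The nearest library of each of the 10 was one of its own group, so the groups were separate but not far apart compared with the distance between animals of one group.

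**Figure D2:**
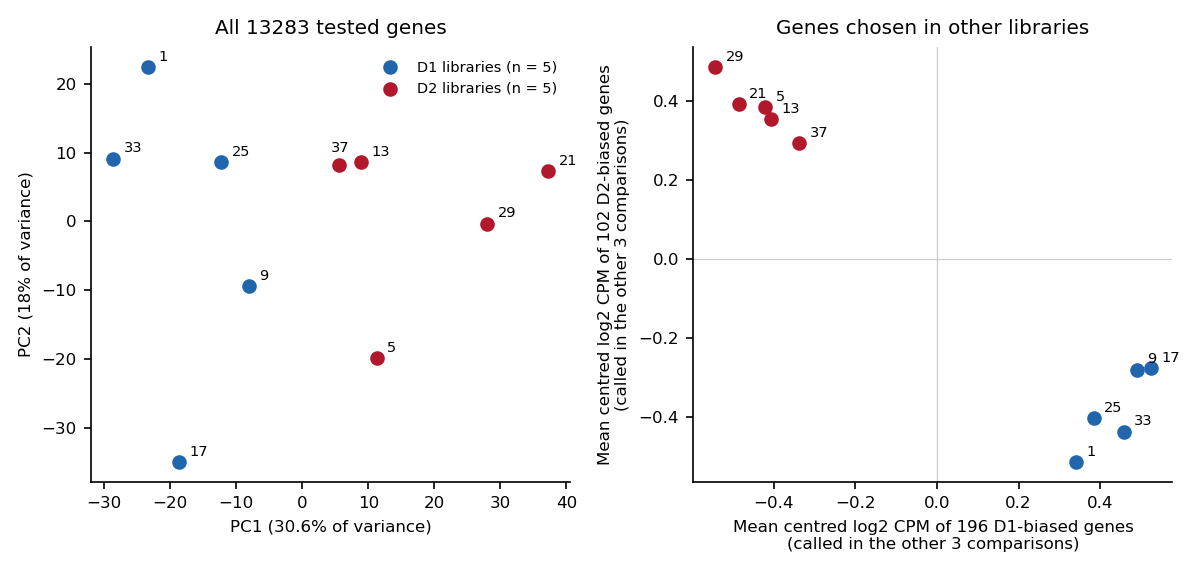
Left, positions of the 10 libraries on the first 2 principal components of log2 CPM over all tested genes. Right, mean centred log2 CPM of 102 D2-biased genes (vertical) against 196 D1-biased genes (horizontal), both sets called in the other 29 libraries. Numbers are library numbers. The D1 libraries (blue) lie below 0 on PC1 and at the lower right, and the D2 libraries (red) above 0 on PC1 and at the upper left.

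A further check used genes chosen in other animals. In the other 3 comparisons, which share no library with this one and of which 1 holds a shallow library (described with them below), 196 genes were D1-biased and 102 were D2-biased every time. All 196 had a fitted value below 0 (D1 side) and all 102 a fitted value above 0 (D2 side) here, with median log2 fold changes of -0.57 and 0.58. Of the 196, 148 were DE in these libraries and 120 had groups that did not overlap. Of the 102, 81 were DE and 60 did not overlap. The difference between the mean centred log2 CPM of the 102 and of the 196 genes ran from -0.89 to -0.77 in D1 and from 0.63 to 1.03 in D2. D2 library 37 was the nearest to the D1 group on this scale. Without the shallow library the sets held 256 and 119 genes, all again with a fitted value on their own side here, with 169 and 92 DE.

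The 4 identifiers without a symbol that are named by the rule used here show how clean the best separated genes were. ENSRNOG00000012311 stood at 84.2 to 117.5 CPM in the 5 D1 libraries and at 9.62 to 15.2 CPM in the 5 D2 libraries (log2 fold change -3.14, SE 0.0923, adjusted p = 7.03e-10). ENSRNOG00000054508 stood at 144 to 184 CPM in D1 and at 25.1 to 41.3 CPM in D2 (log2 fold change -2.46, SE 0.0799, adjusted p = 7.13e-10). On the D2 side, ENSRNOG00000008428 stood at 75.8 to 102 CPM in D1 and at 384 to 501 CPM in D2 (log2 fold change 2.19, SE 0.0699, adjusted p = 7.13e-10). ENSRNOG00000014232 stood at 43.3 to 58.9 CPM in D1 and at 198 to 254 CPM in D2 (log2 fold change 1.92, SE 0.059, adjusted p = 7.03e-10). All 4, like Adora2a, remained called with each library left out in turn and in all 10 other settings.

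Among the 1509 genes with a symbol, 77 were DE (5.1%), of which 40 were D1-biased and 37 D2-biased, a share close to the 5.41% of all tested genes. Below they are grouped by what their products do. Several of the grouping lists also hold symbols that could not be paired, so counts are over the members that were tested. They are descriptions, with no test of the list.

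Receptors, G proteins and other parts of cAMP signalling were DE in 6 of 29 tested members (20.7%, against 5.41% of all genes). Besides Adora2a, the D2-biased members were Adora1, the Gi-coupled adenosine receptor gene of type 1, Rgs8, which encodes a protein that speeds the shut-off of G proteins, and Rasd1, a small dexamethasone-induced G protein. The D1-biased members were Pde9a, a phosphodiesterase that breaks down cGMP, and Gnaz, the alpha subunit of the Gi-family protein Gz. Aside from Adora2a these differences were small, 1.41-fold at most (Pde9a).

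Pde9a stood at 33.8, 26.9, 23.2, 28.2 and 32.6 CPM in D1 libraries 1, 9, 17, 25 and 33, and at 16.8, 21.3, 24.7, 18.7 and 21.9 CPM in D2 libraries 5, 13, 21, 29 and 37. The groups overlapped only through D1 library 17 and D2 library 21, and the fitted difference was -0.50 (SE 0.0908, adjusted p = 0.00881), a call lost with blocks of consecutive library numbers in place of surrogate variables (-0.48, adjusted p = 0.117). Gnaz stood at 37.1 to 44.2 CPM in D1 and at 31.2 to 35.7 CPM in D2, with no overlap (log2 fold change -0.28, SE 0.0768, adjusted p = 0.0709). Gnaz was no longer called in 6 of the 10 fits that left out 1 library, with adjusted p = 0.195 without D2 library 37.

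Adora1 stood at 97.0 to 144 CPM in D1 and at 118 to 161 CPM in D2 libraries, and the groups overlapped (log2 fold change 0.23, SE 0.0669, adjusted p = 0.0948). Rgs8 stood at 145 to 191 and at 189 to 219 CPM (log2 fold change 0.23, SE 0.0665, adjusted p = 0.0877). Both calls lay near the threshold, and both were lost in 6 or more of the 10 fits without 1 library (adjusted p = 0.308 for Adora1 without D1 library 33 and 0.236 for Rgs8 without D2 library 37). Adora1 was DE in 5 of 10 other settings and Rgs8 in 7, and both were lowest in a single model of all 39 libraries, at 0.098 (adjusted p = 0.722) and 0.099 (0.558). Rasd1 stood at 20.0 to 26.8 CPM in D1 and at 26.1 to 29.0 CPM in D2 (log2 fold change 0.36, SE 0.0862, adjusted p = 0.0413), with a slight overlap, and was lost without D1 library 9 (adjusted p = 0.127) or D2 library 37 (0.155) and in the single model (0.22, adjusted p = 0.331). Adcy5, the main striatal adenylyl cyclase gene, and Rgs9, whose product speeds the shut-off of Gi in striatal neurons, were not DE (log2 fold changes 0.01 and 0.13, adjusted p = 0.964 and 0.346). The fitted value of Adcy5 turned below 0 in 7 alternative fits and that of Rgs9 in 1.

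**Figure D3:**
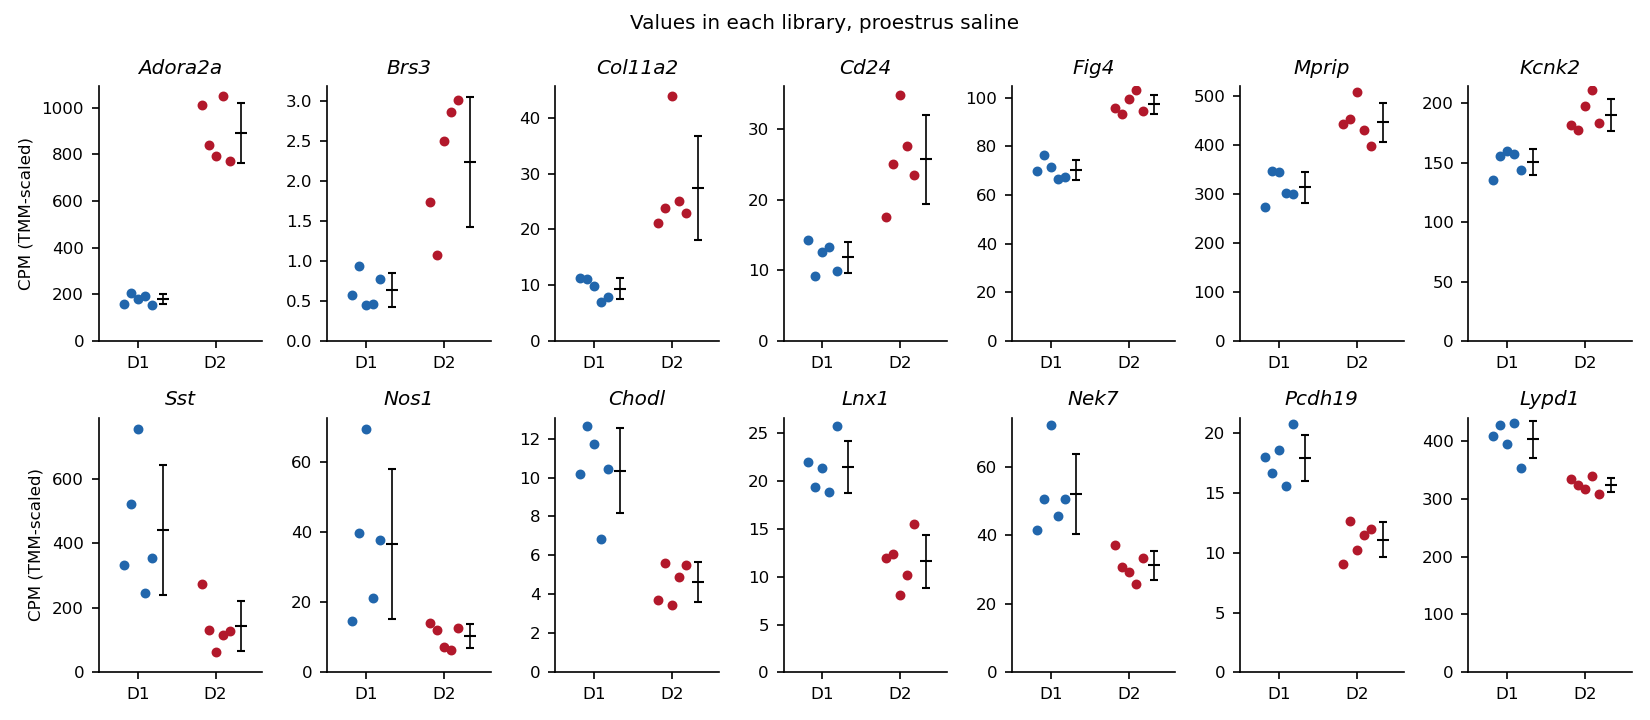
TMM-scaled CPM of 14 named genes in each of the 10 proestrus saline libraries (5 blue D1 points, 5 red D2 points, in order of library number), with the group mean and SD beside the points. Each vertical axis starts at 0. Adora2a, Brs3, Col11a2, Cd24, Fig4, Mprip and Kcnk2 (top row) have no overlap between the groups, and in the bottom row only Sst overlaps.

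Of 4 interneuron marker genes that could be tested, 3 were DE (75%, against 5.41% of all genes), all with a D1 bias (2.6% of all genes): Sst, which encodes the neuropeptide somatostatin, Nos1, the neuronal nitric oxide synthase gene, and Chodl, which encodes chondrolectin and marks the same class of long-range striatal interneurons. Sst stood at 333, 520, 755, 247 and 355 CPM in D1 libraries 1, 9, 17, 25 and 33, and at 273, 131, 63.9, 117 and 127 CPM in D2 libraries 5, 13, 21, 29 and 37. D1 library 17 was the highest, D2 library 21 the lowest, and D2 library 5 lay above D1 library 25, so the groups just overlapped. The means were 442 ± 201 and 142 ± 77.6 CPM (SD, n = 5 each), and the fitted difference was -1.35 (SE 0.223, adjusted p = 0.021), or 2.54-fold higher in D1.

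Nos1 stood at 14.5, 39.8, 69.5, 21.1 and 37.7 CPM in the D1 libraries and at 14.03, 12.1, 7.21, 6.45 and 12.6 CPM in the D2 libraries, in the order of the numbers given for Sst. Library 17 was again the highest, and D1 library 1 was only just above D2 library 5, so the groups did not overlap (log2 fold change -1.27, SE 0.24, adjusted p = 0.0218). Chodl stood at 10.2, 12.6, 11.7, 6.84 and 10.4 CPM in D1 and at 3.72, 5.64, 3.43, 4.89 and 5.52 CPM in D2, again with no overlap (log2 fold change -1.03, SE 0.208, adjusted p = 0.0179). The remaining member, Kit, a receptor tyrosine kinase gene, was not DE (log2 fold change -0.48). Each of the 3 calls was lost without D2 library 37, with adjusted p = 0.148 for Sst, 0.163 for Nos1 and 0.115 for Chodl, and kept in the 9 other such fits. Without D1 library 17 the fitted differences were -1.41, -1.31 and -1.045. With blocks of consecutive library numbers as a term in place of surrogate variables, Sst was at -1.65 with adjusted p = 0.17.

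The summed level of the 4 interneuron genes was 305 to 872.5 CPM in the D1 libraries and 89.3 to 307 CPM in the D2 libraries. Whether the share of interneurons in the tagged or untagged RNA differs between the Cre lines was not tested. The same 3 genes were also DE with a D1 bias in the other 3 comparisons, with log2 fold changes from -1.58 to -1.42 for Sst, from -2.23 to -1.40 for Nos1 and from -1.43 to -1.11 for Chodl.

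The promoters of these 3 genes are shown because these genes all had a D1 bias and because Sst is the textbook target of the cAMP response element, the 8-base palindrome TGACGTCA. Windows run from 250 bases before to 30 bases after the annotated RefSeq start (build GRCr8, written 5′ to 3′ in the sense of the gene), with the palindrome, which reads the same on both strands, in capitals. Mapk10 is added as the D2-biased gene with a match. The windows are Sst at chr11:90461296-90461575 (plus strand), Nos1 at chr12:44371808-44372087 (minus strand), Chodl at chr11:31140865-31141144 (plus strand) and Mapk10 at chr14:6802044-6802323 (plus strand).
Sst: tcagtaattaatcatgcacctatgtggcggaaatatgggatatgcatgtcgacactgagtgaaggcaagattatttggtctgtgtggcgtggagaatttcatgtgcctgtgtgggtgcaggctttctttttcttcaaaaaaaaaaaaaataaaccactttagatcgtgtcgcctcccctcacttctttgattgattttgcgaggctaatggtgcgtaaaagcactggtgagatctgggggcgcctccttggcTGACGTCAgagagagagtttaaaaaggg
Nos1: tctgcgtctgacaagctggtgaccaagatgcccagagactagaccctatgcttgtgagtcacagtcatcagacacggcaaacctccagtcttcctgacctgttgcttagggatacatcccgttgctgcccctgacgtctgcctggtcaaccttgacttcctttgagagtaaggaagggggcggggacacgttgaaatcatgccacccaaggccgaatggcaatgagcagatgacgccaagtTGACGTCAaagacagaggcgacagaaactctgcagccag
Chodl: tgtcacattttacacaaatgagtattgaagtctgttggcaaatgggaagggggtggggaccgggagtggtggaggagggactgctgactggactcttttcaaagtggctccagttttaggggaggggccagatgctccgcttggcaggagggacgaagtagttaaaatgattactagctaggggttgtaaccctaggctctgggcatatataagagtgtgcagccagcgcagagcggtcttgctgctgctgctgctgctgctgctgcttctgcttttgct
Mapk10: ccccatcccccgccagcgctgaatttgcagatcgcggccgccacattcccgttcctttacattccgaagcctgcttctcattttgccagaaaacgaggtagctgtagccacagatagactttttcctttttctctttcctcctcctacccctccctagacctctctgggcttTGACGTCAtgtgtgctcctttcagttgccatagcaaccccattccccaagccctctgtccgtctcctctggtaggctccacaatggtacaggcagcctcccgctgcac

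Counted with the annotated start as base 1, the palindrome began at base 3 of Sst. It began 9 bases before the annotated start of Nos1 and 78 bases before that of Mapk10, and these letters were not in the Chodl window. Where transcription starts in these neurons was not measured, so the palindrome of Sst is not shown to lie within its transcript. It was found in 595 of 33469 windows of the table (1.78%), in 40 of 1274 windows of tested genes with a symbol (3.14%) and in 3 of 60 windows of DE genes with a symbol (5%). A match is a stretch of letters, and no binding was measured here. Adora2a has no window in the table.

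Of 6 genes that both MSN kinds use and that could be tested, Pcp4 and Dlx1 were DE (33.3%, against 5.41% of all genes), both with a D1 bias, and the median of the 6 was -0.16 on the log2 scale. Pcp4, which encodes a calmodulin-binding protein, stood at 366, 429, 479, 398 and 361 CPM in D1 libraries 1, 9, 17, 25 and 33, and at 405, 299, 287, 376 and 266 CPM in D2 libraries 5, 13, 21, 29 and 37, with overlap (log2 fold change -0.37, SE 0.0769, adjusted p = 0.0217). Dlx1, a homeobox gene of developing GABAergic neurons that interneurons keep on, stood at 23.0, 28.7, 48.7, 17.7 and 23.8 CPM in D1 and at 20.7, 14.5, 11.5, 11.5 and 18.2 CPM in D2 (log2 fold change -0.57, SE 0.112, adjusted p = 0.0143). Library 17 was the highest for Dlx1 too, as for Sst and Nos1. Pcp4 was lost without D2 library 37 (adjusted p = 0.268), without surrogate variables (-0.32, adjusted p = 0.183) and with blocks of library numbers (-0.33, 0.202). Dlx1 kept its call with each library left out, but not in the single model of 39 libraries (-0.68, adjusted p = 0.211) or with blocks (-0.84, 0.159), and was at -0.90 without surrogate variables (0.0968). Gad1, which encodes a GABA-making enzyme, had means of 1178 ± 51.1 and 1050 ± 83.5 CPM (SD, n = 5 each) and was not DE (log2 fold change -0.09, adjusted p = 0.416). None of 10 GABA genes was DE, with fold changes from -0.09 to 0.38 on the log2 scale.

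Markers of glia and vessels had fitted values more often above than below 0 here. Of 18 tested, 1 was DE (5.6%, against 5.41% of all genes), and 14 had a fitted value above 0 (48.5% of all genes did). The median was 0.25, where the median over all tested genes was -0.0047. In 3 of the 18 (Gjc3, Flt1 and Tmem119) all D2 libraries were above all D1 libraries, which held for 3.4% of all genes. The DE member was Gjc3, an oligodendrocyte connexin gene, at 2.81 to 4.12 CPM in D1 and 5.58 to 10.0 CPM in D2 (log2 fold change 0.83, SE 0.212, adjusted p = 0.0511). Its call was lost without D1 library 9, 25 or 33 or D2 library 37, with adjusted p from 0.103 to 0.223. The summed level of the 18 genes was 280.5 to 388 CPM in the D1 libraries and 348 to 643 CPM in the D2 libraries. The lean to D2 was not steady over the other comparisons. Of the 18, 8 were above 0 in diestrus saline (median -0.007), 10 in proestrus ketamine (0.088) and 17 in diestrus ketamine (0.495).

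The value of 643 CPM belonged to D2 library 21, and the other D2 libraries stood at 348 to 402 CPM. Without library 21 Gjc3 was at 0.80 (adjusted p = 0.0123). In library 21 Gja1, the astrocyte connexin gene, was at 44.0 CPM, against 22.1 to 26.6 CPM in the other D2 libraries (log2 fold change 0.38, adjusted p = 0.25), and Flt1, an endothelial receptor gene, at 9.76 against 4.21 to 5.25 CPM (0.80, adjusted p = 0.21). Neither was DE with all 10 libraries, but without library 21 both were, Gja1 at 0.38 (adjusted p = 0.0222) and Flt1 at 0.76 (0.04). Flt1 was DE in 3 of the 10 fits without 1 library and in 4 of 10 other settings, and Gja1 in 1 and in 2. Gfap, the astrocyte intermediate filament gene, stood at 21.4 ± 7.27 CPM in D1 and 24.3 ± 9.08 CPM in D2 (SD, n = 5 each), with a fitted value of -0.33 (adjusted p = 0.194) that turned positive, at 0.18, without surrogate variables. Ptprc and Ly86, leukocyte genes, had at most 21 counts in any of the 10 libraries and were not tested. The part of glial and vascular RNA in the other D2-biased genes was not tested.

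**Figure D4:**
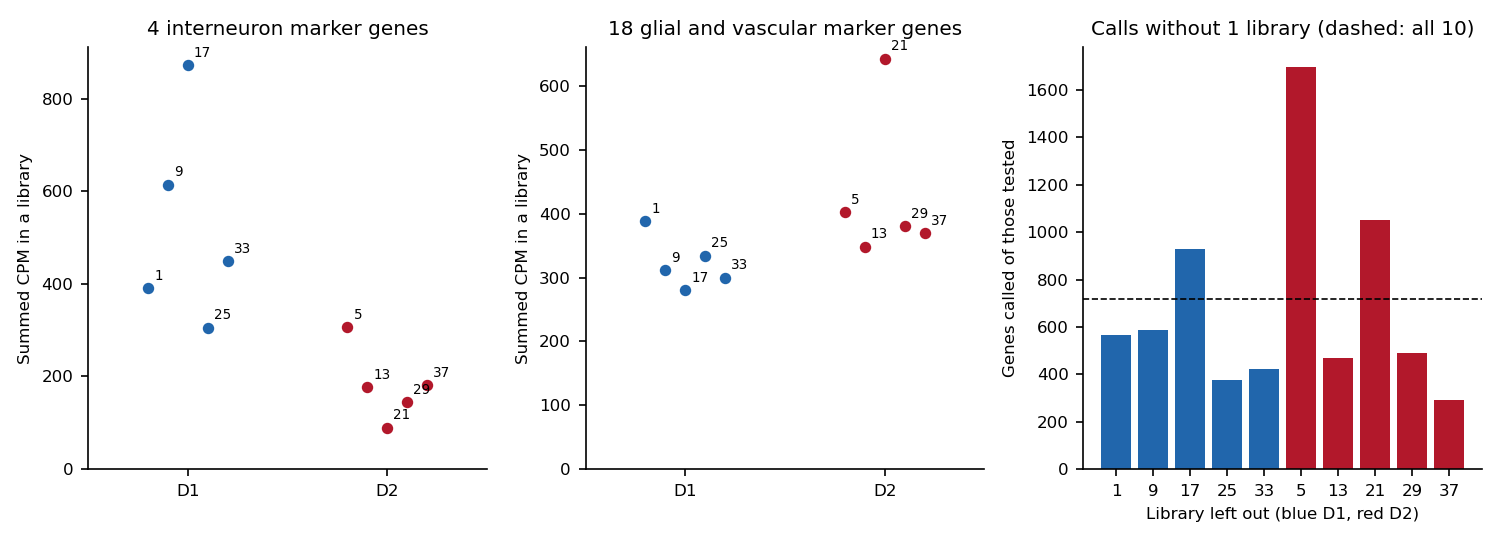
Summed CPM of 4 interneuron (left) and 18 glial and vascular marker genes (middle) in each library, labelled by library number, and the number of genes called DE when each library was left out (right, bars from 0, dashed line at the 718 genes of all 10). Library 17 is highest on the left, library 21 highest in the middle, and the counts on the right run from 290 to 1697.

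Extracellular matrix genes were DE in 4 of 24 tested members (16.7%, against 5.41% of all genes). A D2 bias was found for Col5a2 and Col11a2, which encode chains of fibrillar collagens V and XI, and for Ccdc80, which encodes a secreted matrix protein. A D1 bias was found for Igfbp7, which encodes a secreted protein that binds insulin-like growth factors. Col5a2 and Ccdc80 were of low level.

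Col11a2 stood at 11.3, 11.2, 9.79, 6.93 and 7.89 CPM in D1 libraries 1, 9, 17, 25 and 33, and at 21.1, 23.8, 43.9, 25.1 and 22.9 CPM in D2 libraries 5, 13, 21, 29 and 37. Library 21, which was also the highest in the glial and vascular markers, was far above the rest, and all 5 D2 libraries were above all D1 libraries (log2 fold change 1.27, SE 0.221, adjusted p = 0.0138). Col5a2 stood at 1.09, 1.92, 2.88, 1.36 and 1.66 CPM in D1 and at 4.74, 4.26, 9.47, 3.67 and 4.67 CPM in D2 (log2 fold change 1.46, SE 0.339, adjusted p = 0.0384). Without library 21 the fitted values were 1.26 for Col11a2 (adjusted p = 0.000334) and 1.42 for Col5a2 (0.000544), so these differences were as large without that library. Col11a2 was lost without D2 library 37 (adjusted p = 0.13), and Col5a2 without D1 library 1 (0.151), 25 (0.171) or 33 (0.114) or D2 library 37 (0.291).

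Ccdc80 stood at 0.609 to 1.09 CPM in D1 and at 0.967 to 2.70 CPM in D2 (log2 fold change 1.13, SE 0.305, adjusted p = 0.0668), and kept its call in 4 of the 10 fits without 1 library (adjusted p = 0.58 without D2 library 37) and in 9 of 10 other settings. Igfbp7 stood at 18.8 to 25.1 and at 14.1 to 22.7 CPM (log2 fold change -0.44, SE 0.113, adjusted p = 0.0571), and was lost without library 9, 13 or 37 (adjusted p up to 0.271) and in 4 of 10 other settings (-0.24 to -0.21, adjusted p from 0.398 to 0.42).

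Of 22 tested genes of potassium channels and calcium handling, 4 were DE (18.2%, against 5.41% of all genes), 2 in each direction. Kcnk2, which encodes the background potassium channel TREK-1, stood at 135, 156, 160, 158 and 144 CPM in D1 libraries 1, 9, 17, 25 and 33, and at 182, 178, 198, 211 and 184 CPM in D2 libraries 5, 13, 21, 29 and 37. No value of one group reached the other (log2 fold change 0.27, SE 0.0566, adjusted p = 0.0187), and the call was lost without D2 library 37 (0.21, adjusted p = 0.281) and in the single model of 39 libraries (0.07, adjusted p = 0.781). Itpr2, an intracellular calcium release channel gene, stood at 3.54 to 4.39 CPM in D1 and at 5.61 to 8.29 CPM in D2, without overlap (log2 fold change 0.61, SE 0.158, adjusted p = 0.0563). It kept its call in 4 of 10 such fits, and the highest adjusted p was 0.363, without D2 library 37.

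Trpv2, a calcium-permeable cation channel gene, had a D1 bias, with 26.9 to 33.4 CPM in D1 and 17.4 to 24.5 CPM in D2 (log2 fold change -0.39, SE 0.103, adjusted p = 0.0605). It kept its call in 4 of 10 fits without 1 library (adjusted p = 0.517 without D2 library 37) and was lost in the single model (-0.28, adjusted p = 0.105). Orai2, a store-operated calcium channel gene, had nearly equal means of 103 ± 8.00 and 99.9 ± 9.95 CPM (SD, n = 5 each). Its call (log2 fold change -0.18, SE 0.0489, adjusted p = 0.0753) was lost in 5 of 10 other settings, with -0.05 without surrogate variables (adjusted p = 0.788), and in 8 of 10 fits without 1 library, with adjusted p of up to 0.304 (without D2 library 37).

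Of 12 glutamate receptor genes 1 was DE (8.3%) and of 30 adhesion and guidance genes 2 (6.7%), against 5.41% of all genes, all with a D1 bias. Grik2, a kainate receptor subunit gene, was the DE glutamate receptor gene, at 78.9 to 95.3 CPM in D1 and 69.6 to 77.4 CPM in D2 (log2 fold change -0.26, SE 0.0706, adjusted p = 0.0733), and kept its call in 4 of 10 fits without 1 library (adjusted p up to 0.244, without D2 library 37). Among the adhesion genes, Pcdh19, a delta-protocadherin gene, stood at 18.0, 16.6, 18.6, 15.6 and 20.7 CPM in D1 libraries 1, 9, 17, 25 and 33 and at 9.05, 12.7, 10.3, 11.5 and 12.0 CPM in D2 libraries 5, 13, 21, 29 and 37. All D1 libraries were above all D2 libraries (log2 fold change -0.59, SE 0.116, adjusted p = 0.0135), and the call was lost without D2 library 37 (adjusted p = 0.151). Cadm3, a synaptic adhesion molecule gene, stood at 331 to 410 CPM in D1 and 274 to 327 CPM in D2, without overlap (log2 fold change -0.18, SE 0.0413, adjusted p = 0.0283). Its call was lost without library 13, 25, 33 or 37 (adjusted p from 0.102 to 0.282), and its value was -0.28 without surrogate variables (0.0468).

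Kinase signalling genes were DE in 3 of 32 members (9.4%, against 5.41% of all genes), all with a D2 bias (2.8% of all genes). Map3k20, a stress-activated MAP kinase kinase kinase gene, stood at 19.5 to 24.6 CPM in D1 and 27.2 to 32.5 CPM in D2, without overlap (log2 fold change 0.43, SE 0.0991, adjusted p = 0.0327). Mapk10, which encodes the neuronal kinase JNK3, stood at 154 to 193 and at 181 to 202 CPM (0.23, SE 0.0569, adjusted p = 0.0457). Rasgef1b, an exchange factor gene for small G proteins, stood at 25.4 to 40.3 and at 40.2 to 48.6 CPM (0.41, SE 0.121, adjusted p = 0.0971). Without D2 library 37 the adjusted p values of these 3 genes were 0.278, 0.393 and 0.607, with Rasgef1b at 0.27. Map3k20 was also lost without D1 library 25 (0.155), Mapk10 without library 9, 25, 29 or 33 (up to 0.212) and Rasgef1b without library 1, 13, 25, 29 or 33 (up to 0.305). Mapk10 was not DE in 3 of 10 other settings (0.15 in the single model, adjusted p = 0.311) and Rasgef1b in 2 (0.25 in the single model, 0.295), while Map3k20 was DE in all 10 but at 0.27 in the single model (0.08).

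Of 25 transcription factor genes 2 were DE (8%, against 5.41% of all genes), Dlx1, as given above, and Etv5, an ETS factor gene with a D2 bias (63.8 to 92.3 CPM in D1, 78.6 to 109 CPM in D2, log2 fold change 0.23, SE 0.0611, adjusted p = 0.0577). Of 13 activity-regulated genes, Rasd1 and Ptgs2 were DE with a D2 bias (15.4%, against 2.8% of all genes). Ptgs2, which encodes the inducible prostaglandin synthase COX-2, stood at 6.98 to 14.03 CPM in D1 and at 11.4 to 21.9 CPM in D2 (log2 fold change 0.55, SE 0.147, adjusted p = 0.0665). Etv5 and Ptgs2 each kept their call in 5 of 10 fits without 1 library, with adjusted p of up to 0.491 (Etv5, without D2 library 37) and 0.242 (Ptgs2, without D1 library 25). Etv5 was DE in 6 of 10 other settings and Ptgs2 in 7, and both were lowest in the single model, at 0.11 (adjusted p = 0.773) and 0.21 (0.736).

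No mitochondrial respiration gene was DE among 18 tested (5.41% of all genes were), and all 18 had a fitted value below 0 (51.5% of all genes did), from -0.16 to -0.02, with a median of -0.09 and a smallest adjusted p of 0.251. In the alternative fits 16 to 18 of them were below 0 and 0 to 3 were DE, the 3 without D2 library 5. Their summed level was 4259 to 4795 CPM in D1 and 3732 to 4377 CPM in D2. No steroid hormone gene was DE among 7 tested (smallest adjusted p = 0.143), and 1 of 29 vesicle and secretion genes was, Sst (3.4%, against 5.41% of all genes).

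The remaining named genes are those with the lowest p or the largest fold change among the genes with a symbol. On the D2 side the largest fold change after Adora2a was that of Brs3, which encodes an orphan Gq-coupled receptor of the bombesin family. Brs3 stood at 0.573, 0.938, 0.447, 0.468 and 0.771 CPM in D1 libraries 1, 9, 17, 25 and 33, and at 1.74, 1.075, 2.50, 2.87 and 3.02 CPM in D2 libraries 5, 13, 21, 29 and 37 (log2 fold change 1.65, SE 0.382, adjusted p = 0.0333). The groups did not overlap, although the level was low in both. The call was lost without D1 library 25 (adjusted p = 0.137) or D2 library 37 (1.04, adjusted p = 0.483).

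Cd24, which encodes a small lipid-anchored surface glycoprotein, stood at 14.3, 9.21, 12.6, 13.4 and 9.97 CPM in D1 and at 17.6, 25.1, 34.9, 27.6 and 23.6 CPM in D2, in the order of the libraries given for Brs3. The groups did not overlap (log2 fold change 0.92, SE 0.179, adjusted p = 0.0179), and the call was lost without D2 library 37 (adjusted p = 0.187). RGD1304622, an open reading frame without a name, stood at 3.18 to 6.01 CPM in D1 and 6.83 to 12.6 CPM in D2 (log2 fold change 1.01, SE 0.2, adjusted p = 0.0146). Prodh, which encodes the mitochondrial proline dehydrogenase, stood at 3.05 to 5.37 and at 6.43 to 10.7 CPM (0.78, SE 0.18, adjusted p = 0.0315) and was lost without D2 library 37 (adjusted p = 0.176). Both genes had groups that did not overlap. RGD1304622 kept its call with each library left out, but not in the single model of 39 libraries (0.81, adjusted p = 0.155) or with blocks of library numbers (0.93, adjusted p = 0.124).

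Smaller D2 biases were found in 3 genes of higher level. Fig4, a phosphoinositide phosphatase gene, stood at 69.7, 76.5, 71.4, 66.5 and 67.2 CPM in D1 libraries 1, 9, 17, 25 and 33, and at 95.8, 93.4, 99.6, 103 and 94.5 CPM in D2 libraries 5, 13, 21, 29 and 37 (log2 fold change 0.42, SE 0.0541, adjusted p = 0.000647). Mprip, which encodes a protein that binds myosin phosphatase, stood at 273 to 346 CPM in D1 and at 398 to 508 CPM in D2 (0.45, SE 0.0699, adjusted p = 0.00285). Myh10, the non-muscle myosin IIB heavy chain gene, stood at 469 to 599.5 and at 607 to 646 CPM (0.26, SE 0.0476, adjusted p = 0.00975). None of the 3 overlapped, and all 3 kept their call with each library left out and in all 10 other settings.

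The other D2-biased genes named by rank overlapped between the groups. Mmd, a membrane protein gene, had a fitted difference of 0.27 (SE 0.0463, adjusted p = 0.00578) and kept its call in all 10 fits without 1 library, but not without surrogate variables (0.27, adjusted p = 0.133), in the single model of 39 libraries (0.08, 0.694) or with blocks (0.28, 0.208). Ccdc85a (0.51, adjusted p = 0.021) and Plxdc2 (0.55, adjusted p = 0.0312) were both lost without D2 library 37, with adjusted p of 0.261 and 0.26. Plxdc2 was lost without D1 library 25 as well (0.125). Ccdc85a was DE in 6 of the 10 other settings, and was lost without surrogate variables (0.37, adjusted p = 0.26), with 1 of them (0.32, 0.213), in DESeq2 without them (0.37, 0.187) and with blocks (0.34, 0.261). Mepe, a secreted phosphoglycoprotein gene (0.90, SE 0.257, adjusted p = 0.0843), was at 7.06 CPM in D2 library 5 against 1.52 to 4.47 CPM in the other D2 libraries, and at 0.45 without it (adjusted p = 0.297). Its call was also lost without library 9, 13, 17 or 25 (adjusted p from 0.109 to 0.23), and it was DE in 4 of 10 other settings (adjusted p up to 0.555, with blocks).

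On the D1 side, Tmem114, a transmembrane protein gene of low level, had the largest fold change among genes with a symbol. It stood at 1.82, 2.26, 2.23, 2.08 and 1.305 CPM in D1 libraries 1, 9, 17, 25 and 33, and at 0.677, 0.516, 1.03, 1.32 and 0.512 CPM in D2 libraries 5, 13, 21, 29 and 37. Only D1 library 33 and D2 library 29 met (log2 fold change -1.73, SE 0.27, adjusted p = 0.00285), and the call held with each library left out. Hvcn1, a voltage-gated proton channel gene, was less certain, at 2.29 to 7.57 CPM in D1 and 2.68 to 3.78 CPM in D2 (log2 fold change -0.98, SE 0.279, adjusted p = 0.0884), with its call kept in 4 of 10 such fits (adjusted p = 0.344 without D1 library 25) and in 7 of 10 other settings.

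Medag, an adipogenesis-associated gene, and Masp1, which encodes a serine protease of the lectin complement pathway, had their highest D1 values in library 17, as Sst, Nos1 and Dlx1 did. Medag was at 10.9 CPM there and at 3.595 to 5.12 CPM in the other D1 libraries, against 1.62 to 4.69 CPM in D2 (log2 fold change -0.82, SE 0.167, adjusted p = 0.0178). Masp1 was at 13.5 CPM in library 17 and at 4.38 to 7.12 CPM in the other D1 libraries, against 2.68 to 5.32 CPM in D2 (-0.80, SE 0.146, adjusted p = 0.00897). Without library 17 the fitted values were -0.83 and -0.69, with adjusted p = 0.0245 and 0.0276. Medag was lost without D2 library 37 (adjusted p = 0.242) and with blocks (-1.13, 0.172), and Masp1 was not DE without surrogate variables (-0.91, adjusted p = 0.151), in the single model (-0.82, 0.194) or with blocks (-0.81, 0.201).

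Several D1-biased genes were separated in every library. Lnx1, a ubiquitin ligase gene, stood at 22.0, 19.4, 21.4, 18.9 and 25.8 CPM in D1 libraries 1, 9, 17, 25 and 33, and at 12.0, 12.4, 8.05, 10.2 and 15.5 CPM in D2 libraries 5, 13, 21, 29 and 37 (log2 fold change -0.64, SE 0.0973, adjusted p = 0.00234). Nek7, a kinase gene of mitosis and the inflammasome, stood at 41.6 to 72.1 CPM in D1 and at 25.9 to 37.1 CPM in D2 (-0.57, SE 0.0755, adjusted p = 0.000783). Tmtc1, which encodes an enzyme that adds mannose to cadherins, stood at 41.4 to 60.2 and at 27.4 to 39.8 CPM (-0.61, SE 0.0883, adjusted p = 0.00163).

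Septin9, a cytoskeletal GTPase gene, stood at 58.5 to 71.1 CPM in D1 and at 33.1 to 51.4 CPM in D2 (-0.44, SE 0.0683, adjusted p = 0.00277). Lypd1, which encodes Lynx2, a lipid-anchored modulator of nicotinic receptors, stood at 352 to 430.2 CPM in D1 and at 308 to 338 CPM in D2 (-0.37, SE 0.0527, adjusted p = 0.00135). These 5 genes, Lnx1, Nek7, Tmtc1, Septin9 and Lypd1, did not overlap between the groups and kept their call with each library left out and in all 10 other settings, although Septin9 was at -0.24 in the single model (adjusted p = 0.0312).

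The other D1-biased genes named by rank overlapped. Carhsp1, an RNA-binding protein gene (log2 fold change -0.43, adjusted p = 0.0181), was lost without D1 library 9 (adjusted p = 0.115) and was DE in 6 of the 10 other settings. It was at -0.25 without surrogate variables (adjusted p = 0.283), -0.24 with 1 (0.281), -0.25 in DESeq2 without them (0.25) and -0.25 with blocks (0.263). Maged2 (-0.34, adjusted p = 0.0199) was lost without D1 library 33 (0.188) or D2 library 37 (0.14) and in the single model (-0.11, adjusted p = 0.464). Rnf112, a ubiquitin ligase gene of neurons (-0.23, adjusted p = 0.0175), kept its call with each library left out, but was not DE in 4 of 10 other settings, at -0.11 without surrogate variables (adjusted p = 0.467), with 1 of them (0.425) and with blocks (0.399) and at -0.10 in DESeq2 without them (0.511). A further 25 genes with a symbol were DE and are not among those named by the rule: 15 had a D1 bias, with log2 fold changes from -0.585 to -0.16, and 10 a D2 bias, from 0.21 to 0.57, at adjusted p from 0.0239 to 0.0971.

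The same D2 to D1 difference was then measured in the other 29 libraries, to ask how far it carries over to other animals. None of these comparisons shares a library with proestrus saline. Of genes tested in both, 544 of 13155 (4.14%) were DE in diestrus saline, 741 of 13184 (5.62%) in proestrus ketamine and 1694 of 13179 (12.9%) in diestrus ketamine. Of the D1-biased genes of proestrus saline, 336 of 346 had the same direction in diestrus saline and 178 were DE there, 336 of 346 and 212 in proestrus ketamine, and 334 of 345 and 256 in diestrus ketamine. Of the D2-biased genes, 353 of 370 had the same direction in diestrus saline and 122 were DE there with that direction, 361 of 369 and 162 in proestrus ketamine, and 358 of 369 and 244 in diestrus ketamine. One gene was DE in both with opposite directions, ENSRNOG00000015858, named here after its values were seen. It stood at 1.04 to 2.61 CPM in D1 and 1.72 to 5.72 CPM in D2 in proestrus saline (log2 fold change 1.53, SE 0.277, adjusted p = 0.00847), and was at -1.54 in diestrus saline (SE 0.413, adjusted p = 0.0802), while the test of the change with cycle stage gave an unadjusted p of 0.00575 (adjusted p = 1). For genes that were not DE in proestrus saline the direction was shared by 64.1%, 65.6% and 60.6%.

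The diestrus saline values rest in part on a shallow library, D2 library 39, with 2396517 counts, where the other 9 of that comparison held 18271271 to 23530675. Without it, 920 of 13209 genes (6.96%) were DE in diestrus saline. Of the D1-biased genes of proestrus saline, 338 of 346 then had the same direction and 226 were DE, and of the D2-biased genes 355 of 370 and 166. Of the named genes, Col11a2, Gnaz, Kcnk2, Maged2, Pcdh19 and Prodh were DE in diestrus saline without library 39 and not with it.

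Of 713 DE genes tested in all 4 comparisons, 657 (92.1%) had the same direction in each, against 4296 of 12369 genes that were not DE (34.7%). In all 4, 229 (32.1%) were DE with one direction, and 155 (21.7%) were DE in none of the other 3. Without library 39 these numbers were 664 (93.1%), 261 (36.6%) and 133 (18.7%). The fold changes were smaller in the other animals than in those that had chosen the genes, and the sets were chosen on the first of the 2 values in each pair: for D2-biased genes the median went from 0.52 to 0.28 in diestrus saline, from 0.51 to 0.32 in proestrus ketamine and from 0.51 to 0.40 in diestrus ketamine. For D1-biased genes it went from -0.49 to -0.40, -0.39 and -0.42.

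**Figure D5:**
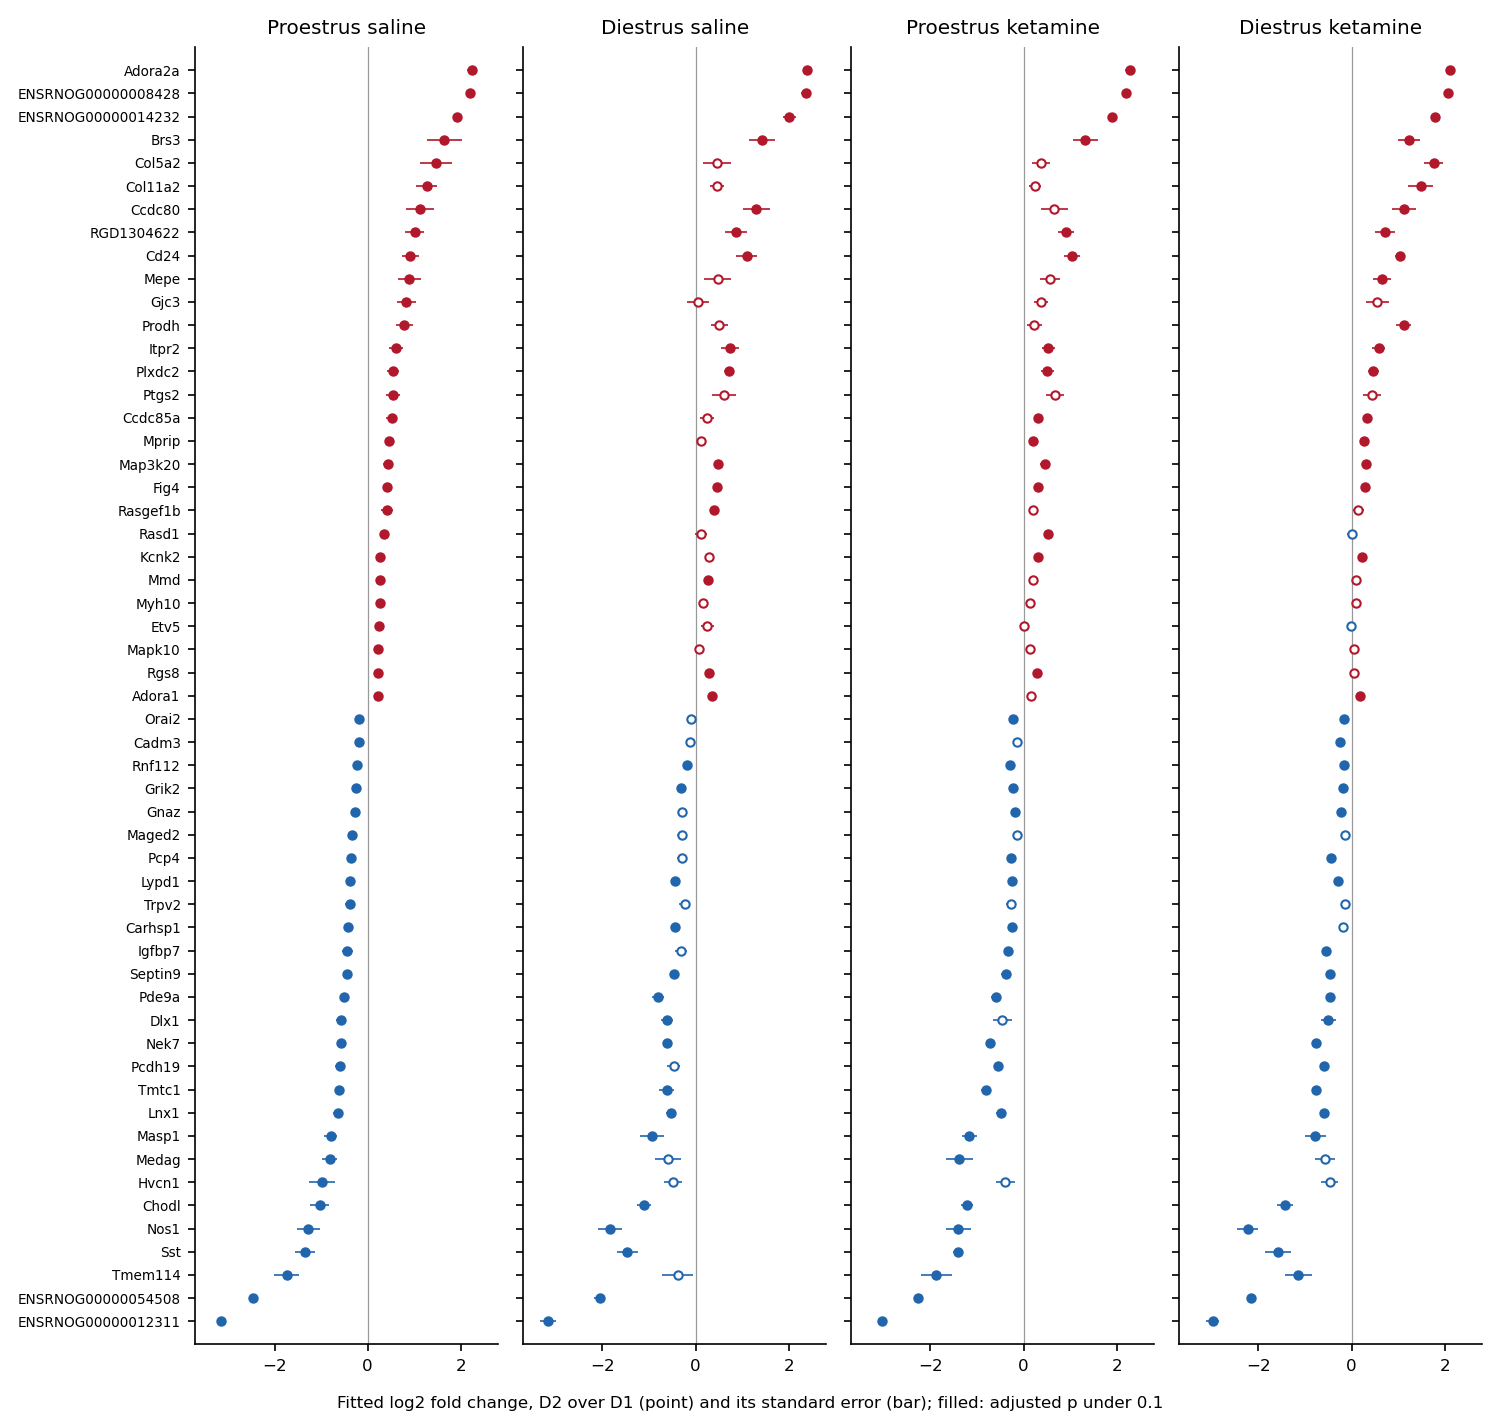
Fitted log2 fold change of D2 over D1 (point) with its SE (bar) for the 55 named genes that were DE in proestrus saline, in that comparison (first panel) and in the other 3, in order of the first panel. Filled points were DE in that panel, red points lie above 0 and blue points below, and Rasd1 and Etv5 are the 2 D2-biased genes with a value below 0 in diestrus ketamine.

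Single genes differed in how well they carried over. Adora2a was DE in each comparison, with values of 2.40, 2.28 and 2.12 in diestrus saline, proestrus ketamine and diestrus ketamine, and so were Cd24 (1.098, 1.035 and 1.05), Brs3 (1.42, 1.325 and 1.24), Fig4 (0.45, 0.32 and 0.29), Nek7 (-0.61, -0.73 and -0.77) and Lypd1 (-0.44, -0.24 and -0.29). Col11a2 was not DE in diestrus saline (0.45, adjusted p = 0.177) or proestrus ketamine (0.24, adjusted p = 0.434) but was in diestrus ketamine (1.49, adjusted p = 0.0159). Without library 39 it was DE in diestrus saline too (0.67, adjusted p = 0.0187). Col5a2 was at 0.45, 0.37 and 1.76, DE in diestrus ketamine and not in diestrus saline with or without library 39. In diestrus ketamine 8 of the 18 glial and vascular markers were DE as well, all with a D2 bias, against 12.9% of all genes there, and 0 of 18 were in the other 2 comparisons. Among them were Gja1 (0.67, adjusted p = 0.00107), Flt1 (1.03, 0.00152), Pdgfra (0.54, 0.0262) and Erg, an endothelial factor gene (1.37, 0.0169). Their part in the collagen values was not tested. Myh10, whose groups here only just did not meet, was DE in none of the others (0.16, 0.13 and 0.10, adjusted p from 0.195 to 0.28).

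Whether the D2 to D1 difference itself changed with cycle stage or treatment was tested with interaction terms. None of 13689 genes passed for proestrus against diestrus in saline, with 318 at an unadjusted p under 0.05 in edgeR and 307 in DESeq2, which also called 0. Without library 39 none passed either. None of 13774 passed for saline against ketamine in proestrus, with 411 at an unadjusted p under 0.05 in edgeR and 413 in DESeq2, which also called 0. For Col11a2 the difference was larger in saline than in ketamine by 0.78 (SE 0.362, unadjusted p = 0.047, adjusted p = 0.998), and for Tmem114 it was more negative in proestrus than in diestrus by -0.97 (SE 0.375, unadjusted p = 0.018, adjusted p = 1). A gene that was DE in proestrus saline and not in diestrus saline or proestrus ketamine, such as Col5a2 and Myh10, is thus not shown to differ between them. Differences from diestrus ketamine were not tested.

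The number of DE genes moved with single animals. Leaving out 1 library gave from 290 (without D2 library 37) to 1697 DE genes (without D2 library 5), and 467, 376, 491 and 422 without libraries 13, 25, 29 and 33. Of the 718 genes, 200 (27.9%) were DE in all 10 of these fits, and 254 (35.4%) remained DE without library 37. Of the 55 DE genes named above, 20 were DE in all 10 fits and none changed direction in any fit, with 32 calls lost without library 37, 19 without library 25, 16 without library 33 and 0 without library 21.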

How the data were processed

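HA-immunoprecipitated RNA of 39 NAc samples, 1 per rat, was sequenced as stranded paired reads by the authors. Per the labels and the methods of the study, reads were trimmed with fastp 0.23.4, checked with FastQC 0.12.1, quantified with Salmon 1.10.2 against mRatBN7.2 (Ensembl 110) and summed per gene, and the deposited values are expected counts, listed as whole numbers for 23978 genes. The authors tested them with DESeq2 1.42.1 and surrogate variables. Such counts rest on a share-out of reads between like transcripts, so close paralogs can trade reads.

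Here libraries were grouped by their labels, and the 10 proestrus saline libraries (17320637 to 24784447 counts) were fitted on their own in edgeR 4.0.16 (R 4.3.3): filterByExpr with a minimum count of 10, TMM factors, 2 surrogate variables (sva 3.50.0) and the robust quasi-likelihood test of D2 against D1, with Benjamini-Hochberg adjusted p under 0.1 over all tested genes. The first surrogate variable had a correlation of 0.51 with the Cre line. CPM values are TMM-scaled and not corrected for surrogate variables, and log2 CPM used a prior count of 2. Principal components were computed on log2 CPM. Each library is a separate rat. The p-values of the fit weigh a difference against the spread between rats that is left after the 2 surrogate variables. The scripts were tested on simulated data.

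The named genes are, among those with a symbol, the 15 DE genes of lowest p and the 10 of largest fold change in each direction, DE members of the lists, fixed cell type markers, and up to 2 identifiers without a symbol in each direction. Some genes that met this rule are not reported here. The comparison, its members and the lists were chosen with earlier results of these data known. Alternatives were other numbers of surrogate variables, DESeq2 1.42.0, DESeq2 size factors, other filters, an adjusted p under 0.05, a single model of 39 libraries, blocks of 8 consecutive library numbers, and leaving out each library. Promoter sequences are from RefSeq (GRCr8). Coordinates of the files' own build, input libraries and the remaining genes by name are not used here.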

Additional observations from a re-analysis of the deposited data

Results flagged for a closer look

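In each group of 5 libraries, the gap of the highest or lowest value to the nearest other was divided by the range of all 5 (Dixon's test, critical value 0.71). Of 180 groups of values, 17 held a library that stood apart. A chance rate of about 1 in 20 holds for independent values, and these were not independent. Genes vary together between libraries, and sums of lists were tested beside their own members. The 17 can thus not be weighed against that rate.

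D2 library 21 was the library apart in 12 of them, each time as the highest of the D2 group. Glial and vascular markers made up most of these: S100b at 124.5 CPM (others 74.41 to 85.2), Gja1 at 43.96 CPM (22.06 to 26.64), Mog at 15.9 CPM (6.775 to 9.142), Gjc3 at 10.01 CPM (5.579 to 6.675), Flt1 at 9.763 CPM (4.213 to 5.248), Pdgfra at 8.291 CPM (4.689 to 5.272), Sox9 at 4.808 CPM (2.71 to 3.246) and Tmem119 at 2.453 CPM (0.9109 to 1.333). The summed level of the 18 glial and vascular markers was 643 CPM there, against 348.4 to 402 CPM. The collagen genes Col11a2, at 43.91 CPM (21.14 to 25.12), and Col5a2, at 9.469 CPM (3.67 to 4.74), and the proton channel gene Hvcn1, at 3.778 CPM (2.676 to 2.951), were apart in the same library.

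Medag was apart in both groups, at 10.85 CPM in D1 library 17 (others 3.595 to 5.118) and at 4.692 CPM in D2 library 5 (1.619 to 2.409). In D1 library 1, S100b was the highest at 93.87 CPM (65.11 to 71.11) and Itpr2 the lowest at 3.542 CPM (4.208 to 4.391). Galc, an oligodendrocyte enzyme gene, was the lowest in D2 library 13 at 6.108 CPM (7.401 to 7.752).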

How the results depend on the processing

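The count of 718 DE genes became 1362 with 1 surrogate variable, 1090 with the 3 that num.sv gave, 1441 in DESeq2 without surrogate variables and 440 at an adjusted p under 0.05. It stayed within 1.5 times without surrogate variables (971), in DESeq2 with 2 (898), with DESeq2 size factors (717), under both other filters (856 and 789), in the single model of 39 libraries (875) and with blocks of library numbers (932), although the single model shared only 442 of the 718 genes. Leaving out 1 library gave 290 to 1697 genes. The cause was not tested. The interaction with cycle stage gave 1 gene with the number of surrogate variables from num.sv (ENSRNOG00000048109, adjusted p = 0.0143) and 0 in every other setting run, and the interaction with treatment gave 0 in all settings run. The share of DE genes with the same direction in all 4 comparisons went from 92.15% to 89.37% in DESeq2, and to 93.13% without D2 diestrus saline library 39, an alternative chosen after seeing the data. Genes with groups that did not overlap numbered 851, and 938 to 1268 without 1 library, where fewer libraries have to be separated.

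None of the 55 named DE genes changed sign in any fit. Of named genes that were not DE, Gfap turned to 0.18 without surrogate variables, 0.17 with 1, 0.19 in DESeq2 without them, 0.0601 in the single model and 0.17 with blocks, and Fabp7 to 0.0052 with 1 and 0.00079 in DESeq2 without them. Adcy5 turned to -0.0283 with num.sv, -0.0114 with 10 counts in every library and -0.23 in the single model, and Rgs9 to -0.0471 in the single model. Without 1 library, Adcy5 ran from -0.0851 to 0.115, S100b from -0.00047 to 0.16, Sox9 from -0.0432 to 0.28 and Pdgfra from -0.0042 to 0.34. No paired analysis was possible because the labels give no replicate number that groups share. Blocks of 8 consecutive numbers, each with 1 D1 and 1 D2 library, stand in for a pairing that no label gives, and called 932 genes.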
